A study of Homo sapiens with 40 samples.

Results

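The comparison described here set the gene expression of AG01522 fibroblasts 12 h after an X-ray dose of 2 Gy against that of the same cells 12 h after 5 cGy. AG01522 is an established line of normal human skin fibroblasts. The series held 40 PrimeView arrays in 13 groups, and the 6 arrays whose titles give 12 h and one of these single doses were the members, 3 arrays per dose. The series was designed around radioadaptation, in which 5 cGy serves as a priming dose and 2 Gy as a challenge dose, so this pair of groups shows how the challenge dose alone differed from the priming dose alone at 1 time.

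All cultures of the series were fully confluent before treatment, which limits them as a model of cycling cells, and all came from 1 cell line. The 2 Gy cultures received no priming dose and the 5 cGy cultures no challenge dose. By the methods of the study the doses were given at different tube voltages, tube currents and dose rates, so dose and beam condition cannot be told apart. The other groups used here were the same single doses at 3, 6 and 24 h (3 arrays each), 5 cGy followed 12 h later by 2 Gy with RNA taken 12 h after the second dose (3 arrays), and 4 sham-irradiated baseline arrays, which carry no time. The labels number the arrays of a group as biological replicates. Each array carries RNA of a whole culture, so fewer cells that express a gene and less RNA per cell cannot be told apart. Values are log2 intensities after RMA normalization, in which a difference of 1 is a doubling, and ± gives the standard error (SE) of the difference from the model unless an SD is named.

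The 12 fibroblast markers, which include the collagen genes and PDGFR genes, averaged between 12.2 and 12.4 in the 6 arrays, and all 12 had a mean over 5. The other lists averaged between 4.55 and 5.57 (keratinocyte, melanocyte, endothelial, leukocyte and adipocyte), and the smooth muscle and myofibroblast markers between 10.9 and 11.2. No marker list had a called member. Both measures of RNA quality on the arrays moved with the dose. The difference between the 3' and 5' control probe sets of GAPDH lay between 0.265 and 0.293 after 2 Gy and between 0.387 and 0.425 after 5 cGy at 12 h, against 0.275 to 0.398 in the sham arrays. The same difference for ACTB lay between 2.18 and 2.23 after 2 Gy and between 2.63 and 2.98 after 5 cGy, against 2.12 to 2.68 in sham. With GAPDH as a covariate STOM remained called (0.48, adjusted p = 0.0174), and CDKN1A kept a difference of 0.57 without passing (0.0835). With ACTB as a covariate, a fit chosen after seeing the data, no gene was called (574 at an unadjusted p under 0.05), with differences of 0.60 for CDKN1A, 0.42 for STOM and -1.22 for CDC6. With the block as well, GAPDH left CDC6, CDKN1A, MCM10 and STOM called, and ACTB left CDC6, CDKN1A and STOM. Arrays with the same replicate number resembled each other across the doses. Results are therefore given both without and with the replicate number as a block where the call differs. Each ± is the SE without the block, also where a p with the block stands beside it.

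Ionizing radiation breaks DNA, and the kinases that sense the breaks stabilise the transcription factor p53. p53 raises genes that halt the cell cycle, repair DNA, start cell death and dampen p53 itself. Its target CDKN1A encodes p21, which blocks the cyclin-dependent kinases, keeps RB and related proteins bound to E2F factors and so holds back the genes that E2F drives, many of which serve DNA replication. In skin fibroblasts this response is best known as a lasting arrest rather than as cell death.

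Of 18244 genes tested at 12 h, 2 passed an adjusted p of 0.05 in limma (0.0110%), and both were higher after 2 Gy. With the replicate number as a block 10 genes passed (0.0548%), 6 higher and 4 lower. The 6 higher genes were STOM, CDKN1A, SESN1, DDB2, PHLDA3 and EDA2R, of which all but STOM are known targets of p53. The 4 lower genes were CDC6 and MCM10, which serve DNA replication, CDCA7, listed below under S phase entry, and its paralog CDCA7L, which was in no list. Fitted on the 6 arrays alone, no gene passed (597 at an unadjusted p under 0.05, against 591 in the main test). With the block, CDKN1A, STOM and CDC6 passed whichever of the 6 arrays was left out, MCM10 passed without 2 Gy replicate 3, 5 cGy replicate 1 or 5 cGy replicate 3, and SESN1, DDB2, PHLDA3, EDA2R, CDCA7 and CDCA7L passed in none of these fits.

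CDKN1A, which encodes p21, read 13.72, 13.71 and 13.74 in replicates 1 to 3 of 2 Gy and 13.002, 13.09 and 13.32 in those of 5 cGy. The 3 arrays of 2 Gy were nearly identical and all lay above the 5 cGy arrays and above the highest sham array (13.22). The gene rose by 0.59 ± 0.11 (1.5-fold, adjusted p = 0.0322, and 0.000614 with the block). Without the block it passed only when 5 cGy replicate 3 was left out. Against sham, whose mean was 12.98 (SD 0.277, n = 4), it was 0.74 ± 0.10 higher after 2 Gy and 0.15 ± 0.10 higher after 5 cGy.

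STOM, which encodes the membrane protein stomatin, had the smallest p of all genes. Its values were 10.82, 10.85 and 10.81 after 2 Gy and 10.31, 10.31 and 10.36 after 5 cGy, and the 5 cGy arrays lay within the sham range of 10.20 to 10.42. The difference was 0.50 ± 0.08 (1.42-fold, adjusted p = 0.00609). Without the block it did not pass when replicate 1 or 2 of either dose was left out (adjusted p from 0.0594 to 0.0917). The 4 other probe sets of STOM gave differences between 0.50 and 0.77, and the unadjusted p of each was under 0.05. STOM belonged to none of the lists.

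**Figure D1:**
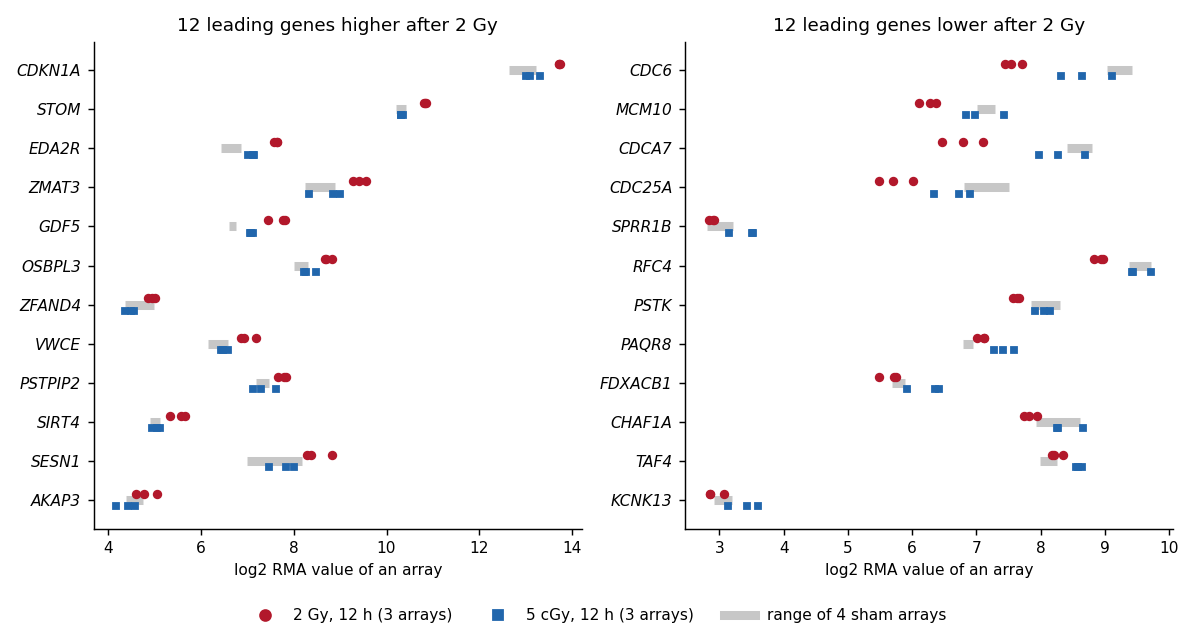
Log2 RMA values of the 24 leading genes in each array, with 2 Gy as circles, 5 cGy as squares and the range of the 4 sham arrays as grey bars (left, 12 genes higher after 2 Gy; right, 12 genes lower). In CDKN1A and STOM the 5 cGy arrays sit near the sham bar and the 2 Gy arrays above it, and in CDC6, CDCA7 and CDC25A the 2 Gy arrays sit far below it. The genes were chosen by their p in this comparison, so the lack of overlap between the doses follows from the choice.

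Of 55 listed p53 targets 52 were measured, 45 had a higher mean after 2 Gy and 7 a lower one, and their median difference was 0.27 beside -0.02 for all genes. By the test across all genes 1 member was called, where 0.0110% of all genes were. With the block 5 were, none of them lower, where 0.0548% of all genes were. At an unadjusted p under 0.05, 15 members were higher, where 0.784% of all genes were. In 16 members all 2 Gy arrays lay above all 5 cGy arrays, as in 2.63% of all genes. In 0 members all lay below, where 5.88% of all genes did. The median over the members was 9.03, 8.91 and 8.92 in the 2 Gy arrays and 8.81, 8.54 and 8.70 in the 5 cGy arrays, so this summary did not overlap either. The difference between arrays of the same number was 0.26, 0.30 and 0.18.

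Among the 6 feedback genes of p53 the median was 0.42, and 3 did not overlap between the doses (2.63% of all genes were as high). MDM2, the ubiquitin ligase of p53, read 8.78, 8.31 and 8.28 after 2 Gy and 8.05, 7.66 and 7.67 after 5 cGy (0.66 ± 0.29). Replicate 1 was the highest array of each dose, and the sham arrays spread from 7.04 to 8.64. The difference was 0.33 ± 0.14 for PPM1D, a phosphatase that dampens p53 signalling, 0.58 ± 0.27 for the cyclin gene CCNG1 and 0.51 ± 0.31 for TP53INP1, whose arrays overlapped. None of these 4 was called with or without the block. Other probe sets differed by -0.05 to 0.99 for MDM2, 0.52 to 0.55 for PPM1D, 0.52 to 0.77 for CCNG1 and 0.10 for TP53INP1.

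Of the 8 arrest genes only CDKN1A was called. The polo-like kinase PLK3 was 0.36 ± 0.18 higher without overlap, and PLK2 (0.33 ± 0.29) and GADD45A (0.19 ± 0.19), a stress sensor that slows the entry into mitosis, overlapped. Other probe sets of PLK2 differed by 0.69, 0.78 and 0.12. The median of the 8 arrest members was 0.11.

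The largest role was cell death with 18 members, of which 17 had a higher mean after 2 Gy. The median was 0.30, and 8 did not overlap (2.63% of all genes were as high). EDA2R, a receptor of the TNF receptor family, read 7.63, 7.57 and 7.64 after 2 Gy and 7.15, 7.01 and 7.11 after 5 cGy. Both doses lay above the sham maximum of 6.87, so the order was sham, 5 cGy, 2 Gy without any overlap. Its difference of 0.52 ± 0.12 passed with the block (adjusted p = 0.043) and not without it (0.319). ZMAT3, an RNA-binding protein, read 9.55, 9.40 and 9.28 against 8.85, 8.33 and 8.997 (0.69 ± 0.17, adjusted p = 0.546, and 0.297 with the block). PHLDA3, an inhibitor of AKT, differed by 0.45 ± 0.16 and passed with the block (adjusted p = 0.0413), and the nuclease AEN by 0.35 ± 0.12 without passing.

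All 5 repair targets had higher 2 Gy means (median 0.25). DDB2, which recognises ultraviolet lesions for nucleotide excision repair, read 9.97, 10.24 and 10.48 after 2 Gy and 9.51, 9.56 and 9.81 after 5 cGy. The lowest 2 Gy array stood just above the highest 5 cGy array. Its difference of 0.60 ± 0.22 passed with the block (adjusted p = 0.0266) and not without it. The translesion polymerase POLH (0.25 ± 0.16), the ribonucleotide reductase subunit RRM2B (0.49 ± 0.34) and XPC (0.16 ± 0.12) overlapped.

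Among 5 metabolic targets SESN1, a sestrin that restrains growth signalling, had the largest difference. It read 8.83, 8.29 and 8.38 after 2 Gy and 8.01, 7.47 and 7.82 after 5 cGy, a difference of 0.73 ± 0.22 that passed with the block (adjusted p = 0.0266). TIGAR, which lowers glycolysis, was 0.61 ± 0.22 higher without overlap and was not called. The relative SESN2 differed little between the doses (0.14 ± 0.24), although it was called against sham after both, with 1.45 ± 0.22 after 2 Gy and 1.31 ± 0.22 after 5 cGy. ACER2, a ceramidase, had values near the floor of the arrays (-0.21 ± 0.15).

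The remaining 10 targets had a median of 0.18. GDF15, a stress cytokine of the TGF-beta family, read 10.75, 11.25 and 11.50 after 2 Gy and 9.85, 10.28 and 10.78 after 5 cGy. Its groups touched, since the lowest 2 Gy array lay just below the highest 5 cGy array, while in each pair of the same number 2 Gy was higher. The difference of 0.86 ± 0.30 (1.81-fold) did not pass (adjusted p = 0.168 with the block). Other probe sets of GDF15 differed by 0.95, 1.44, 0.05 and 0.60. TRIM22 (0.63 ± 0.38), ANKRA2 (0.28 ± 0.18) and NINJ1 (0.20 ± 0.14) were not called. Among 6 measured inhibitors of cyclin-dependent kinases CDKN1A alone was called, and the arrays of CDKN1C (-0.16 ± 0.21), CDKN1B (-0.07 ± 0.15) and CDKN2D (-0.04 ± 0.18) overlapped.

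**Figure D2:**
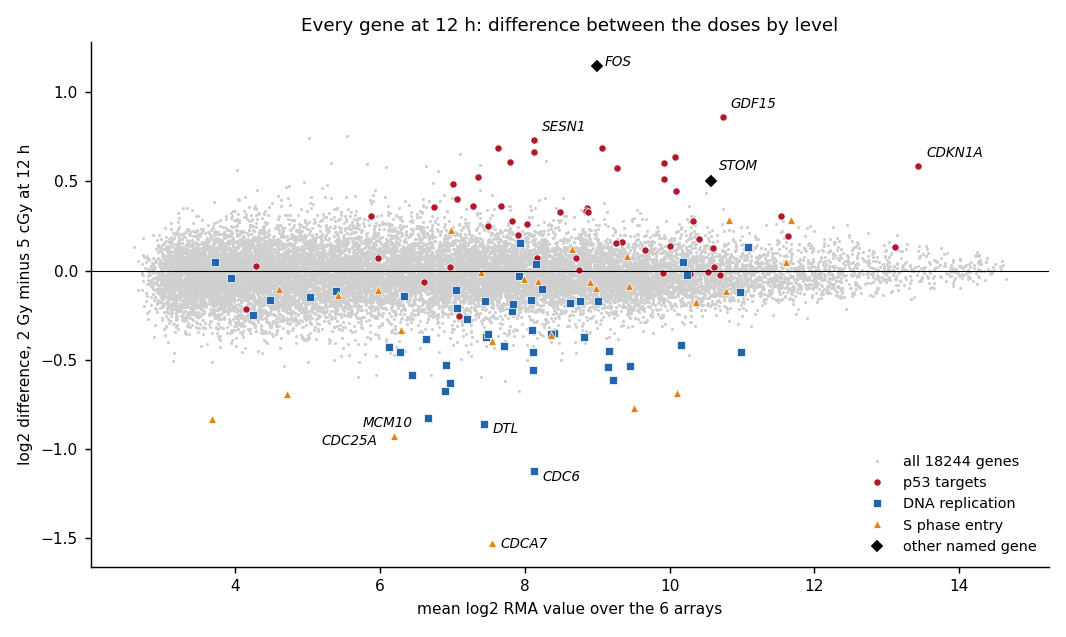
Difference between 2 Gy and 5 cGy at 12 h (log2) against the mean log2 RMA value over the 6 arrays, with each of 18244 genes as a grey dot. The p53 targets (red circles) lie mostly above 0, DNA replication genes (blue squares) mostly below it, and the S phase entry genes (orange triangles) hold the largest fall, CDCA7 at -1.53, while FOS at 1.15 had the highest mean difference with an SE of 0.96.

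The first 4 of the leading genes that were lower after 2 Gy were CDC6, MCM10, CDCA7 and CDC25A. Promoter windows of RefSeq (GRCh38.p14, from 250 bases before to 50 after the start of a gene) were searched on both strands for 4 short E2F motifs, TTTCCCGC, TTTGGCGC, TTTCGCGC and TTTGCCGC. At least 1 was found in 5.55% of the 14494 measured genes with a window, in 21 of 42 DNA replication genes with a window (50%), in 10 of 21 S phase entry genes (47.6%), in 3 of 35 mitosis genes (8.57%) and in 6 of 41 p53 targets (14.6%). A match describes the letters and is not evidence of binding.

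KCNK13, E2F2, ZNF367, GINS3, GINS1 and POLE, named below as lower after 2 Gy, had a match and are not shown. The stretches around the matches of 6 other such genes, picked by hand, are shown here. Each runs 5′ to 3′ on the strand of its gene, and capitals mark the matched motif or its reverse complement. In MCM6 the capitals mark a pair of matches that overlap, TTTGGCGC and the reverse complement of TTTCGCGC, and the block occurs at 2 places. The places are chr17:40287846-40287928 (CDC6, + strand), chr2:173354767-173354854 (CDCA7, + strand), chr3:48188414-48188501 (CDC25A, - strand), chr19:4909447-4909534 (UHRF1, + strand), chr2:135876482-135876635 (MCM6, - strand) and chr1:212035700-212035787 (DTL, + strand).
CDC6: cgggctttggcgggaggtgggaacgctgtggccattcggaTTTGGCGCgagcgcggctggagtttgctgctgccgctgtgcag
CDCA7: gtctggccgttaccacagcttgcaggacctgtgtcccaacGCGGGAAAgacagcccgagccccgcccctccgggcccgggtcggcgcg
CDC25A: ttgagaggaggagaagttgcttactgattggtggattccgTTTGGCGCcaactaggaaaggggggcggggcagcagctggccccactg
UHRF1: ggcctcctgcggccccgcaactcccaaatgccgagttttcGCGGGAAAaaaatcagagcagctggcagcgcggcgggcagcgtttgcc
MCM6: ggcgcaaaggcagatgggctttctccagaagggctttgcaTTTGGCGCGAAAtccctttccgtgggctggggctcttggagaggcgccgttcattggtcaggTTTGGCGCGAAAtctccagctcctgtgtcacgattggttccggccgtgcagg
DTL: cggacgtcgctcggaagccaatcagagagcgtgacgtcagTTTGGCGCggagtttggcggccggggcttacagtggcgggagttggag

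The motif of CDC6 begins 8 bases into the transcript and that of DTL 8 bases before the start (position -8), while those of CDC25A and CDCA7 begin at -44 and -65. MCM10, RFC4 and CHAF1A had none of the 4 motifs in their windows.

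Of the 50 DNA replication genes, all measured, 45 had a lower mean after 2 Gy and 5 a higher one, with a median of -0.30. No member was called by the test across all genes, where 0.0110% of all genes were. With the block 2 were, both lower, where 0.0548% of all genes were called. At an unadjusted p under 0.05, 20 members were lower, where 2.46% of all genes were, and in 21 members all 2 Gy arrays lay below all 5 cGy arrays, as in 5.88% of all genes. The median over the members was 7.54, 7.75 and 7.69 after 2 Gy and 7.88, 8.09 and 7.87 after 5 cGy, and it was lower by 0.30, 0.42 and 0.26 in the pairs of the same number (medians of the members' differences).

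Licensing prepares origins by loading the MCM helicase, and all 11 of its genes had a lower mean after 2 Gy (median -0.43). CDC6, which loads the helicase, read 7.54, 7.71 and 7.45 after 2 Gy and 8.64, 9.12 and 8.32 after 5 cGy. All 2 Gy arrays lay well below the others, and the 5 cGy arrays reached from below the sham minimum of 9.03 into the sham range. CDC6 fell with the block (-1.12 ± 0.22, SE 0.16 with the block, 2.18-fold lower, adjusted p = 0.000666), while without it the adjusted p was 0.0688. The helicase subunits MCM6 (-0.45 ± 0.13) and MCM4 (-0.42 ± 0.14) and the origin recognition subunit ORC1 (-0.43 ± 0.15) were not called. MCM6 read 8.14, 7.96 and 7.56 after 2 Gy and 8.49, 8.47 and 8.05 after 5 cGy, so that 2 Gy was lower in each pair of the same number and all 6 arrays lay below the sham minimum of 8.66.

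The 9 genes of origin firing and the helicase had a median of -0.37. MCM10, which helps to start unwinding, read 6.11, 6.38 and 6.27 after 2 Gy and 6.98, 7.43 and 6.84 after 5 cGy, with no overlap. It fell with the block (-0.83 ± 0.18, SE 0.14 with the block, 1.77-fold lower, adjusted p = 0.00472) and did not pass without it (0.266). The GINS subunits GINS3 (-0.67 ± 0.24) and GINS1 (-0.54 ± 0.20) did not overlap, CDC45 (-0.63 ± 0.27) did, and none of the 3 was called. The other probe sets of GINS1 differed by -0.0036 and -0.14.

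Of the 22 genes of DNA synthesis 18 had lower means (median -0.18). RFC4, a subunit of the clamp loader, read 8.94, 8.97 and 8.83 after 2 Gy and 9.44, 9.72 and 9.41 after 5 cGy (-0.61 ± 0.15, adjusted p = 0.473, and 0.0533 with the block). The flap endonuclease FEN1 (-0.54 ± 0.17), the primase subunit PRIM1 (-0.58 ± 0.19) and the polymerase subunit POLE (-0.37 ± 0.16) did not overlap either and were not called.

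All 8 genes of fork protection and chromatin assembly had lower means (median -0.23). DTL, the adaptor of a ubiquitin ligase that removes CDT1 and p21, read 7.03, 6.97 and 7.03 after 2 Gy and 7.97, 8.07 and 7.57 after 5 cGy. Its 2 Gy arrays were nearly equal and its difference was -0.86 ± 0.25 (adjusted p = 0.297 with the block). The other probe set of DTL differed by -1.05 ± 0.25. The chromatin assembly subunits CHAF1A (-0.56 ± 0.15) and CHAF1B (-0.38 ± 0.13) and the fork protein TIPIN (-0.27 ± 0.13) did not overlap and were not called. The other probe set of CHAF1B (mean level 3.50) differed by 0.13.

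The 26 measured S phase entry genes were mixed, with 20 lower means and a median of -0.11. At an unadjusted p under 0.05, 9 members were lower and 1 higher, where 2.46% and 0.784% of all genes were. With the block 1 member was called, as were 0.0548% of all genes. Among cyclins and kinase regulators, CDC25A, a phosphatase that activates cyclin-dependent kinases, read 6.01, 5.48 and 5.69 against 6.73, 6.90 and 6.34 (-0.93 ± 0.22, adjusted p = 0.371, and 0.11 with the block). The E cyclins CCNE2 (-0.83 ± 0.29) and CCNE1 (-0.36 ± 0.14) were also lower without overlap, although CCNE2 read only 3.07 to 3.38 after 2 Gy, near the floor of the arrays. CCND1, the D cyclin of growth signals, had a higher mean after 2 Gy, with 11.87, 11.77 and 11.80 after 2 Gy and 11.72, 11.53 and 11.33 after 5 cGy (0.29 ± 0.10). Its 2 Gy mean was at the sham mean (0.00 ± 0.09) and its 5 cGy mean 0.28 ± 0.09 under it, a difference from sham that did not pass (adjusted p = 0.215). The other 3 probe sets of CCND1 differed by 0.01, 0.07 and -0.11, so its higher value rested on 1 probe set. None of these 4 genes was called.

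Among the factors of transcription and chromatin, CDCA7, a partner of the chromatin remodeller HELLS, had the largest fall of all genes. It read 7.10, 6.79 and 6.47 after 2 Gy and 8.27, 8.69 and 7.97 after 5 cGy, a difference of -1.53 ± 0.34 (2.88-fold lower), and passed with the block (adjusted p = 0.0369) but not without it (0.266). Its paralog CDCA7L, which stands outside the lists and is named because the block called it, read 8.401, 8.24 and 8.09 against 8.92, 8.70 and 8.62 (-0.50 ± 0.15, adjusted p = 0.0226 with the block). UHRF1, which maintains DNA methylation (-0.77 ± 0.24), and the zinc finger gene ZNF367 (-0.69 ± 0.29) did not overlap, E2F2 (-0.33 ± 0.14) did, and none of the 3 was called. The other probe sets differed by -0.17 and 0.17 for UHRF1 and by 0.12 and -0.15 for ZNF367, so both falls rested on 1 probe set. For nucleotide supply, the ribonucleotide reductase subunit RRM2 read 9.85, 9.72 and 9.71 against 10.44, 10.70 and 10.19 (-0.68 ± 0.25), while DUT (-0.18 ± 0.08), RRM1 (-0.09 ± 0.17) and TK1 (-0.12 ± 0.33) overlapped.

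**Figure D3:**
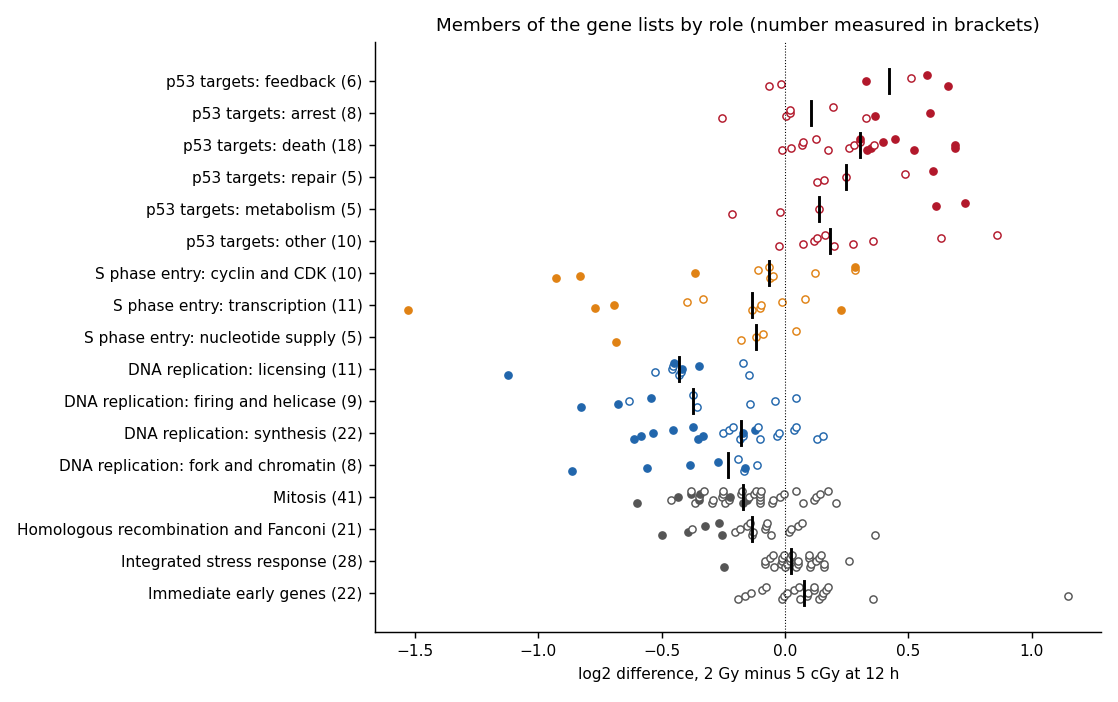
Difference between 2 Gy and 5 cGy at 12 h (log2) of each measured list member, 1 row per list or role, with filled points where the 3 arrays of one dose all lie above the 3 of the other and a bar at the median. Licensing (median -0.43) and firing (-0.37) lie furthest below 0, p53 feedback (0.42) and death (0.30) above it, and the integrated stress response (0.03) and immediate early genes (0.08) near it.

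Of 41 measured genes of mitosis 34 had lower means after 2 Gy, the median was -0.17, 8 did not overlap (5.88% of all genes were as low) and none had an unadjusted p under 0.05. The kinetochore genes SPC25 (-0.43 ± 0.28) and TTK (-0.60 ± 0.44), the spindle kinase AURKA (-0.35 ± 0.27) and the proliferation antigen MKI67 (-0.37 ± 0.30) had the smallest p. The same 41 genes had a median of -0.98 at 24 h.

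Genes of homologous recombination and the Fanconi pathway, which repair breaks and crosslinks with a sister copy, had a median of -0.13 over 21 measured members, 16 of them lower, and none was called. The exonuclease EXO1 (-0.50 ± 0.15), the ligase FANCL (-0.39 ± 0.13), XRCC3 (-0.32 ± 0.11) and XRCC2 (-0.26 ± 0.13) did not overlap between the doses. The other probe sets of FANCL differed by -0.03 and -0.01, and that of XRCC2 by -0.0028. In damage signalling (11 members, median -0.09) WEE1, the kinase that holds CDK1 inactive, read 9.98, 10.06 and 10.22 against 10.25, 10.35 and 10.45 (-0.26 ± 0.09), and CHEK1 (-0.28 ± 0.14), MDC1 (-0.18 ± 0.13) and H2AX (-0.27 ± 0.24) overlapped. None of these was called.

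The integrated stress response, which answers amino acid and endoplasmic reticulum stress, had a median of 0.03 over 28 members with none called and none at an unadjusted p under 0.05. CEBPG (-0.25 ± 0.21), the transporter SLC7A5 (0.26 ± 0.33), STC2 (0.15 ± 0.19) and the synthetase SARS1 (0.10 ± 0.17) had the smallest p. The immediate early genes, short-lived factors that follow growth signals, had a median of 0.08 over 22 members. FOS read 8.88, 10.19 and 9.64 after 2 Gy and 7.21, 9.17 and 8.89 after 5 cGy. Its mean difference of 1.15 was the highest of all genes, yet with an SE of 0.96 it had an unadjusted p of 0.239, and 5 of the 6 arrays lay well below the lowest sham array (10.20), which the sixth, 2 Gy replicate 2, nearly equalled. ATF3 (0.36 ± 0.31), FOSL2 (0.15 ± 0.12) and FOSB (-0.16 ± 0.12) overlapped.

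Of the caveolae genes, CAVIN2, a coat protein, read 5.66, 5.12 and 5.39 after 2 Gy and 4.75, 4.37 and 4.82 after 5 cGy (0.74 ± 0.27, 1.67-fold), without overlap and without passing. Its other probe set differed by 1.02 ± 0.19, and with the block the gene was called at 6 and 24 h. The abundant coat genes CAVIN1 (0.16 ± 0.10), CAVIN3 (0.14 ± 0.12) and CAV2 (-0.04 ± 0.13) were close to 0. Other probe sets differed by -0.25 and -0.15 for CAVIN1 and by 0.19 for CAV2. A list of genes checked by qPCR was chosen on these samples and is no independent evidence, and 6 of its 7 members were analysed here. Beside CDC6, GDF15 and FOS these were TXNIP (-0.31 ± 0.57), RRM1 and JUN (-0.01 ± 0.21), and none of the last 3 was called.

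Each dose was also set beside sham, and these comparisons share the same 4 sham arrays. Sham replicate 4 has a number that no other array has, so with the block it added nothing to them. After 2 Gy 11 of 52 p53 targets were called higher, where 0.367% of all genes were, and after 5 cGy 2 were, where 0.274% were. With the block 21 (4.47% of all genes) and 6 (3.85%) were called higher. The median of these targets was 0.36 and 0.12. Of the 50 DNA replication genes 8 were called lower after 2 Gy (median -0.32, 0.301% of all genes lower) and 1, MCM6, after 5 cGy (-0.52 ± 0.12, adjusted p = 0.0418, median of the list 0.02, 0.0548% of all genes lower). With the block 16 and 2 were called lower, where 2.24% and 0.959% of all genes were. CDC6 was 1.66 ± 0.20 below sham after 2 Gy (adjusted p = 1.5e-05) and 0.54 ± 0.20 below it after 5 cGy (0.319). Mitosis genes had medians of 0.07 and 0.30 above sham, with none called at either dose and 1 called higher at each with the block. Other lists had similar values at both doses. Of 16 heat shock chaperones 3 were called lower after 2 Gy and 2 after 5 cGy (medians -0.26 and -0.29), of 28 genes of the integrated stress response 3 were called higher at each dose (0.11 and 0.06), and the 6 inhibitors of cyclin-dependent kinases had medians of 0.51 and 0.38.

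The same contrast at the other times used other arrays, whose RNA quality also differed. At 3 h the GAPDH difference lay between 0.384 and 0.675 after 2 Gy and between 0.317 and 0.367 after 5 cGy. At 6 h these ranges were 0.229 to 0.402 and 0.350 to 0.408. At 24 h they were 0.261 to 1.05, with 2 Gy replicate 1 the highest, and 0.327 to 0.420. Its part in the results at these times was not tested. The contrast called 5 genes at 3 h (0.0274%), 5 at 6 h (0.0274%) and 32 at 24 h (0.175%), and with the block 27 (0.148%), 24 (0.132%) and 86 (0.471%). CDKN1A was the only gene called at all 4 times, with or without the block, by 0.67 at 3 h, 0.69 at 6 h and 0.50 at 24 h, and without the block STOM was the only other gene called at more than 1, with 0.48 at 6 h and 0.42 at 24 h. With the block 10 genes were called at 2 or more times. Of these SESN1 was called at 3, 6 and 12 h, EDA2R and STOM at 6, 12 and 24 h, and CDC6 and MCM10 at 12 and 24 h. At 3 h STOM differed by 0.02. The median of the p53 targets was 0.21 at 3 h, 0.24 at 6 h and 0.30 at 24 h, with 3, 2 and 1 members called higher (9, 10 and 5 with the block). DNA replication genes had medians of 0.02, -0.03 and -0.37, and at 24 h 3 members were called lower (9 with the block).

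CDC6 differed by -0.02 at 3 h, -0.37 at 6 h and -1.30 at 24 h (adjusted p = 0.00254), and MCM10 by -0.18, 0.12 and -1.03 (0.0047). CDC25A (-0.99 at 24 h, adjusted p = 0.0375), DTL (-1.29, 0.0175) and UHRF1 (-1.18, 0.0249) were also called at 24 h. RRM2 differed by -2.02 there (adjusted p = 6.43e-05) and by -0.68 at 12 h, and CDCA7 had its lowest value at 12 h, with -0.64 at 6 h and -0.88 at 24 h. A test of the difference between the times called no gene in limma: against 3 h the smallest adjusted p was 0.217 (1263 genes at an unadjusted p under 0.05), with 493 such genes against 6 h and 321 against 24 h, and none was called with the block. With the mean of all probe sets of a gene, this test against 3 h called STOM and CTNNB1, the latter named for this call. The difference at 12 h minus that at 3 h was 0.73 ± 0.13 for STOM (adjusted p = 0.0175) and 0.87 ± 0.14 for CTNNB1 (0.00985). The differences of CTNNB1 at each of these times are not given here, so the value does not say at which time the doses differed.

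A second pair of groups with no array in common compared primed cells with and without 2 Gy. These were 5 cGy + 2 Gy at 12 h and 5 cGy at 24 h, both 24 h past the priming dose. Here 5 cGy was given on both sides, so this is not the same difference as between the single doses. In limma this comparison called no gene, with 1004 at an unadjusted p under 0.05, and 63 genes with the block. CDKN1A differed by 0.58 ± 0.11 and STOM by 0.42 ± 0.08, beside 0.59 and 0.50 between the single doses at 12 h. EDA2R (0.46), ZMAT3 (0.78), SESN1 (0.37), DDB2 (0.47) and GDF15 (0.87) had the same sign. CDC6 (-0.68 ± 0.22), MCM10 (-0.61 ± 0.18) and CDCA7 (-0.72 ± 0.34) did too, and the median of the p53 targets was 0.26 and that of DNA replication genes -0.08.

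Other probe sets of the 24 leading genes gave a check on the choice of probe set only. They read the same RNA on the same arrays by which the genes were chosen, so they are no independent evidence of a dose difference. There were 30 such probe sets for 17 of the genes. The sign was the same in 25, of which 17 reached an unadjusted p under 0.05, and no probe set of opposite sign reached it. The other probe set of CDKN1A differed by 0.89 ± 0.13, that of SESN1 by 1.01 ± 0.21 and that of CDC6 by -0.52 ± 0.20. CDCA7 rested on 1 probe set, since its other one, with a mean level of 4.33, differed by 0.07 ± 0.12. So did EDA2R, whose other one (mean level 3.98) differed by -0.07 ± 0.14. ZFAND4 did too, with -0.02 ± 0.12 in its other one (mean level 3.42), as did VWCE, with -0.20 ± 0.12 and 0.0006 ± 0.14.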

How the data were processed

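Total RNA of AG01522 cultures was hybridized to Affymetrix PrimeView arrays. The deposited table gives 1 log2 intensity for each probe set and array, made by the authors with RMA, which corrects background, applies quantile normalization and summarises probes. The submitters' processing notes also name RMA, with no version number. The values comprised 49495 probe sets on 40 arrays, with array medians from 5.62 to 5.7. By the methods, probes were regrouped with a customised chip definition and low-spread intensities were filtered out, whereas the deposited table holds the maker's probe sets with no such filter applied. No detection calls entered, and precision is limited by how many arrays there were.

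A probe set was used when the platform annotation gave it exactly 1 gene (45284 probe sets, against 1333 with several and 2878 with none). Each of 18244 genes was represented by its brightest probe set on average across the 40 arrays. All arrays entered 1 model with a mean for each of 13 groups (limma 3.58.1, R 4.3.3, lmFit and eBayes, 27 residual and 5.4 prior degrees of freedom). Tests were two-sided, and a gene was called at a Benjamini-Hochberg adjusted p under 0.05 over all genes. The scripts were tested on simulated data.

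Members and gene lists were chosen with earlier results of these data known. Lists are described by counts and medians, without a test. Named genes were the 12 per direction called, filled by the smallest p, up to 4 members with the smallest p of each described list or role, and the qPCR genes. The replicate numbers were taken to pair the arrays. Deviations from the group means correlated at 0.683, 0.376 and 0.245 between same-numbered arrays of the 2 doses at 12 h. The average of -0.21 between others largely follows from this, since deviations cancel within a group, and is no separate evidence. The pair of 2 Gy replicate 3 and 5 cGy replicate 2 reached 0.314, above the 0.245 of both replicates 3. All calls with the block rest on this pairing. The labels call the arrays biological replicates without saying what a number shares or whether cultures were grown apart, so p values measure the spread between these arrays, which may be technical. Alternatives were the block, only the 6 arrays, cyclic loess, the mean of probe sets, filters, array weights, a trend, the GAPDH difference as a covariate and each array left out. The ACTB difference as a covariate, and the block with cyclic loess, the mean of probe sets or each array left out, were chosen after seeing the data.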

Additional observations from a re-analysis of the deposited data

How the results depend on the processing

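The count of 2 genes called at 12 h (2 higher, 0 lower) was 10 with the replicate block (6 higher, 4 lower), 0 with the 6 compared arrays fitted alone (597 genes at an unadjusted p under 0.05) and 0 in that fit with the replicate block (1668). It was 3 with the interquartile range filter (1 lower, CDC6) and with array weights (1 lower, CDC25A), 1 with the GAPDH difference as a covariate (1 higher, STOM, with CDKN1A at 0.57 and an adjusted p of 0.0835), and 4 with that covariate and the replicate block (2 lower). With the ACTB difference as a covariate, added after seeing the data, it was 0 (0 higher, 574 at an unadjusted p under 0.05, CDKN1A 0.60 and STOM 0.42), and 3 with that covariate and the replicate block (1 lower). It was 2 with cyclic loess, the mean of probe sets, dim genes removed and a trend of the prior spread. At the threshold of the study methods 436 genes passed, 115 higher and 321 lower. With 1 array left out it was 0 to 3 (0 to 2 higher, 0 to 1 lower). It was 0 without replicates 1 and 2 of either dose, 1 without 2 Gy replicate 3 and 3 without 5 cGy replicate 3.

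With the replicate block the 10 calls became 4 with the GAPDH covariate (CDC6, CDKN1A, MCM10 and STOM) and 3 to 5 with 1 array left out. CDC6, CDKN1A and STOM were called in each of these fits. FMO2, called only without 5 cGy replicate 1, is named for that reason. With cyclic loess the same 10 were called. With the mean of probe sets 11 were called, of which 6 were shared. The new calls were CAVIN2, DTL, GDF15, OSBPL3 and PLK2, while MCM10, CDCA7, CDCA7L and EDA2R were no longer called. The 24 leading genes kept their sign in 451 of 451 alternative values, most of which could not turn it. Array weights or leaving out 1 array cannot turn a sign where the doses do not overlap, as in all 24. The block, the 6 arrays alone, the filters and the trend leave the difference itself unchanged. Only cyclic loess, the mean of probe sets and the covariates could turn it. The mean of probe sets shrank 9 of the 24 genes by over 1.5 times: EDA2R to 0.23, ZFAND4 to 0.22, VWCE to 0.098, CDCA7 to -0.73, CDC25A to -0.60, RFC4 to -0.29, PSTK to -0.25, FDXACB1 to -0.26 and CHAF1A to -0.33.

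With 1 array left out the median of the p53 targets ran from 0.20 (without 5 cGy replicate 2) to 0.28 and that of mitosis genes from -0.27 to -0.066. The DNA replication median was -0.20 with the mean of probe sets. With the ACTB covariate the medians were 0.35 for p53 targets and -0.21 for S phase entry, and with the block as well that of mitosis was -0.0064. The test against 3 h called 2 genes with the mean of probe sets, STOM and CTNNB1, the latter named for that reason. Uncalled genes whose sign turned were RRM1 (0.0089), FOSB (0.0061), FOSL2 (-0.0078), CAVIN1 (-0.082) and CAV2 (0.11) with the mean of probe sets, TXNIP with the GAPDH covariate (0.041), and JUN with cyclic loess (0.017), the GAPDH covariate (0.057) and that covariate with the replicate block (0.058). With the ACTB covariate, without and with the replicate block, they were CDKN1B (0.12 and 0.072), CAV2 (0.033 and 0.013), TXNIP (0.53 and 0.083) and JUN (0.12 and 0.081), and without the block RRM1 (0.038), STC2 (-0.055) and SARS1 (-0.0047). With 1 array left out, SESN2 ran from -0.061 to 0.32, CDKN1C from -0.30 to 0.012, CDKN1B from -0.12 to 0.020, CDKN2D from -0.16 to 0.060, TK1 from -0.38 to 0.11, SARS1 from -0.0011 to 0.19, FOSB from -0.29 to 0.0076, CAV2 from -0.10 to 0.045 and JUN from -0.069 to 0.0499. The cause was not tested.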

Other observations

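Some of the leading genes that were lower after 2 Gy than after 5 cGy stood above sham after 5 cGy and near it after 2 Gy. PAQR8, which encodes a membrane progestin receptor, read 7.02, 7.11 and 7.12 after 2 Gy and 7.28, 7.58 and 7.41 after 5 cGy, against a sham range of 6.79 to 6.95. It was 0.55 ± 0.08 above sham after 5 cGy (adjusted p = 0.000993) and 0.20 ± 0.08 after 2 Gy (0.345). TAF4, a subunit of the general transcription factor TFIID, was 0.51 ± 0.09 above sham after 5 cGy (adjusted p = 0.0034) and 0.17 ± 0.09 after 2 Gy (0.555). The difference between the doses was -0.34 ± 0.09 for PAQR8 and -0.35 ± 0.09 for TAF4, neither of which was called. FDXACB1 (-0.58 ± 0.15), KCNK13 (-0.46 ± 0.13) and SPRR1B (-0.50 ± 0.12) had a similar order, with no call against sham at either dose. KCNK13 and SPRR1B lay near the floor of the arrays, where no array of either single dose read above 3.60 at 12 h. PSTK, which acts in selenocysteine synthesis, had another order, with 5 cGy at the sham mean and 2 Gy 0.42 ± 0.09 below it (adjusted p = 0.0272).

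Other leading genes that were higher after 2 Gy were GDF5, a growth factor of the BMP family (7.44, 7.82 and 7.77 against 7.12, 7.08 and 7.06, or 0.59 ± 0.16), the sterol-binding protein gene OSBPL3 (0.41 ± 0.12), VWCE (0.49 ± 0.15), PSTPIP2 (0.43 ± 0.13), the mitochondrial sirtuin SIRT4 (0.48 ± 0.14), ZFAND4 (0.47 ± 0.14) and AKAP3 (0.42 ± 0.13). None was called with or without the block. In primed cells GDF5 differed by 0.53 and PSTPIP2 by 0.42, and OSBPL3 (-0.04), SIRT4 (-0.01) and ZFAND4 (0.01) by less than 0.05.

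Most matrix and signalling lists lay close to the median of all genes (-0.02). The median was -0.0025 over 34 extracellular matrix genes, -0.03 over 13 matrix proteases and inhibitors, 0.03 over 25 NF-kB and cytokine genes, 0.03 over 22 interferon response genes, 0.02 over 21 lysosomal genes, -0.0028 over 9 Notch genes and 0.05 over 23 histone genes. The 13 Wnt genes lay lower, with a median of -0.16, 11 lower means and 3 members lower at an unadjusted p under 0.05, where 2.46% of all genes were. With the ACTB covariate, without the block, the median was 0.20 for the NF-kB and cytokine genes and 0.19 for the interferon response. None of these lists had a called member with or without the block.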
